A study of Mus musculus with 7 samples.

Results

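The heat shock proteins and cochaperones described here are 10 genes, *Hspa1a*, *Hspa1b*, *Hspa8*, *Hsph1*, *Hspb1*, *Dnaja1*, *Dnajb1*, *Hsp90aa1*, *Hspd1* and *Bag3*, taken by name from the 14851 genes of the deposited table. All 10 were among the 12545 genes with a mean normalised count of at least 10 that were tested. RNA from whole liver was sequenced in 4 Albumin-Cre p53 FL/FL mice (FL) and 3 Albumin-Cre p53 WT/WT mice (WT), all males on a C57BL/6J background at about 70 days of age. Every mouse had been given a single intraperitoneal dose of CCl4 (20% in corn oil, at 1 mL per kg of body weight) and was sampled 8 h later, so there was no untreated liver with which to compare the level of any chaperone. CCl4 is a solvent that hepatocytes convert into reactive radicals. The Albumin promoter drives Cre in hepatocytes, and both genotypes carried Cre. The groups therefore differed in whether *Trp53* was floxed and could be deleted where Cre was active. Which cells of the liver kept the gene was not measured here. Some mice of the study, in both genotypes, also carried a Rosa26 LSL-tdRFP reporter, and the labels do not say which.

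Heat shock proteins are molecular chaperones, which hold or refold proteins that have lost their shape and are made in larger amounts when heat, oxidants or reactive metabolites damage cellular protein. HSP70 proteins (*Hspa1a*, *Hspa1b*, *Hspa8*) bind stretches of unfolded chain in a cycle driven by ATP, in which J-domain proteins (*Dnaja1*, *Dnajb1*) deliver the client and exchange factors (*Hsph1*, *Bag3*) release the spent nucleotide. HSP90 (*Hsp90aa1*) finishes the folding of kinases and steroid receptors, the mitochondrial chaperonin HSP60 (*Hspd1*) encloses proteins imported into mitochondria, and the small heat shock protein HSP27 (*Hspb1*) keeps unfolded protein from aggregating. The stress-inducible members are switched on by heat shock factor 1, which binds as a trimer to heat shock elements built from inverted repeats of the letters GAA.

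The promoters of these genes are shown because such elements are the sequence feature the family is known for. RefSeq promoter windows of mouse build GRCm38.p6, from 250 bases before to 50 bases after a start, were found for 8 of the 10 members, in 13 windows. *Hspa1a* and *Hspa1b* lie side by side on chromosome 17, and their 250 bases before the start shared 247 bases (98.8%). The 150 bases before each start are printed 5′ to 3′ for this pair, at chr17:34972157-34972306 and chr17:34959239-34959388 on the minus strand, and for *Hspb1*, at chr5:135887769-135887918 on the plus strand, with each match to the paired unit in capitals.
Hspa1a: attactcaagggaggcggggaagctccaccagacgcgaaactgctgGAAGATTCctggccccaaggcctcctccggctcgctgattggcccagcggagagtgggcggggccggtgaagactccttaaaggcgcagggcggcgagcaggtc
Hspa1b: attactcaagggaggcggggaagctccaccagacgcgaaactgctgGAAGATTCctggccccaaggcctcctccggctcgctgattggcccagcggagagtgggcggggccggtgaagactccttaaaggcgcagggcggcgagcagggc
Hspb1: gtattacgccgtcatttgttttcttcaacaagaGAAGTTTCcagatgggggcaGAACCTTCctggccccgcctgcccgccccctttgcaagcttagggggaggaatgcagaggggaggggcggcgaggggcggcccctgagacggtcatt
The paired unit was GAANNTTC or TTCNNGAA, each of which reads the same on the other strand. It was present in 7 of the 8 members (87.5%), all but *Dnajb1*, and in 17.0% of the 27025 genes with a window. The *Hspa1a* and *Hspa1b* matches both began 104 bases before the start, and *Hspb1* held 2 matches, 117 and 97 bases before its start.

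A match of 3 units in a row, GAANNTTCNNGAA or its reverse complement TTCNNGAANNTTC, was rarer, and holds the paired unit within it. It was present in 179 of the 27025 genes (0.662%) and in 2 of the 8 members (25.0%), *Hsph1* and *Hspd1*, which are printed with all bases of the run in capitals, 5′ to 3′ on the strand of each gene.
Hspd1: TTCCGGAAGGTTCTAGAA
Hsph1: TTCTGGAAAGTTC
The *Hspd1* run, at chr1:55088059-55088076 on the minus strand, held 4 units and began 144 bases before the second of its listed starts. It lay after the first listed start, whose window held no match of 3 units. The same 18 bases, read on the plus strand, began 89 bases before the start of *Hspe1*, the neighbouring gene that encodes HSP10, the cap of the HSP60 chamber. The *Hsph1* run, at chr5:149636288-149636300 on the minus strand, lay after the start. These are matches of letters, and binding was not measured.

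*Trp53* was measured first, as the check of the labels. The FL livers, taken in the order of replicates 1 to 4, held 131, 130, 217 and 110 normalised counts, while the WT livers, replicates 1 to 3, held 876, 688 and 831, with a log2 fold change of −2.47 (SE 0.23; limma adjusted p = 0.0447; exact two-sided permutation p = 0.0286, the smallest that 4 against 3 livers allow). The libraries held an estimated 11.9 to 19.5 M reads on genes, so counting error was small beside the spread between livers for every member, the lowest of which was 504 normalised counts. WT replicate 2 and FL replicate 3 stood apart from the rest. The number of genes more than 2-fold from every other liver of the genotype was 1953 in WT replicate 2, 400 in FL replicate 3 and 47 to 103 in the others. The hepatocyte markers summed to 1519539 to 1996474 in FL and 1304054 to 1562760 in WT, with none of the 9 at 0. The source names of all WT mice begin alike and no FL name begins so. What that part of the name marks is not given in the sources used here, and it cannot be told apart from genotype.

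No heat shock protein or cochaperone passed the test of a difference between FL and WT livers. By limma, 0 of 10 passed an adjusted p of 0.05, against 0.0159% of all genes (2 of 12545), and 0 of 10 had an unadjusted p under 0.05, against 3.2% of all genes (401). The adjusted p was 0.999 for each. The livers of the genotypes overlapped for all 10. Over all genes they were apart with FL higher in 2.77% and with FL lower in 1.98%. Beside shares this low, a count of 0 of 10 does not set the members apart. The fitted log2 fold changes lay between 0.05 and 0.53 with a median of 0.45, beside a median of 0.01 over all genes tested. All 10 were above 0, and all 10 were below 0 when WT replicate 2 was left out, with a median of −0.39. The 10 genes together summed to 73094 ± 21817 normalised counts in FL (SD, n = 4) and 65301 ± 41367 in WT (SD, n = 3; exact two-sided permutation p = 0.8). The plot of members by liver shows that the spread within each genotype was larger than the gap between the means.

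**Figure D1:**
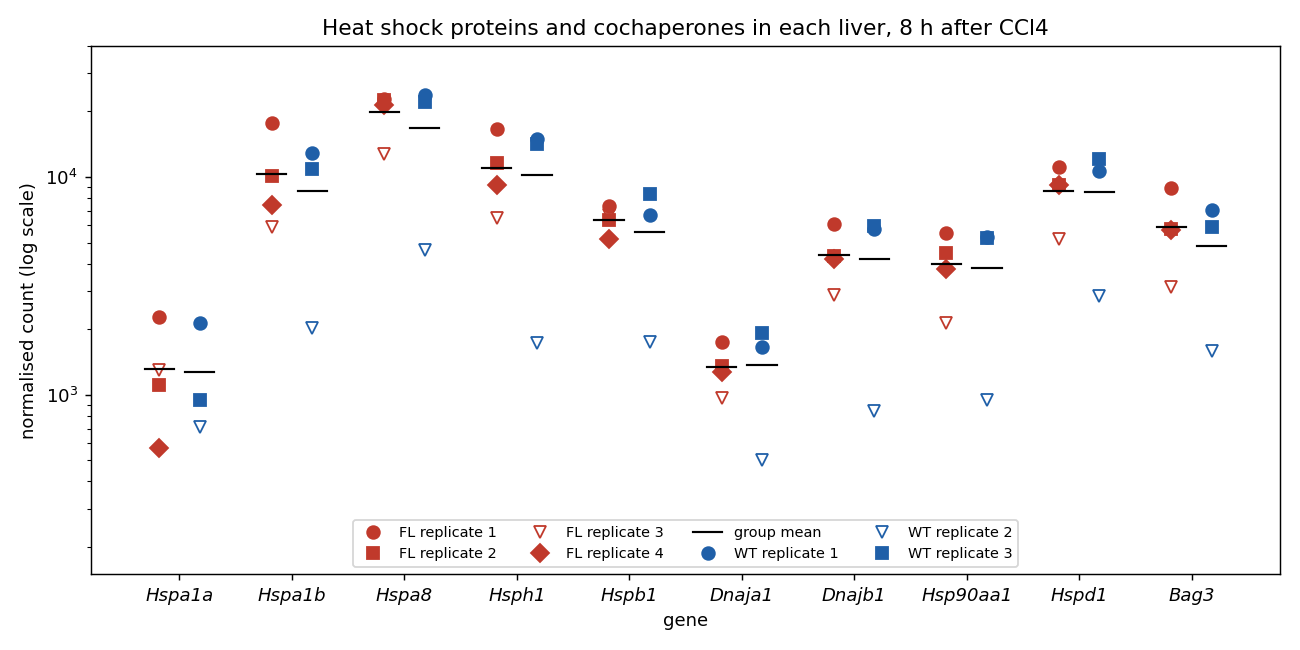
Normalised count (log scale) of each of the 10 genes in each liver, FL in red and WT in blue, with FL replicate 3 and WT replicate 2 as open triangles and a black line at each group mean. WT replicate 2 is the lowest of the 7 livers for 9 genes, and every pair of groups overlaps.

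*Hspa1b*, the more abundant of the stress-inducible HSP70 genes, read 17712, 10113, 5904 and 7439 normalised counts in FL and 12885, 2017 and 10875 in WT, with livers again in the order of their replicate numbers. FL replicate 1 was the highest liver, and WT replicate 2 stood far below the other 6. The means were 10292 ± 5243 in FL and 8592 ± 5782 in WT, and the log2 fold change was 0.52 (SE 0.66, 95% interval −1.0 to 2.04; exact permutation p = 0.657). *Hspa1a*, its neighbour, read 2279, 1109, 1297 and 570 in FL and 2147, 712 and 950 in WT. The order of livers was different here, with FL replicate 4 the lowest and FL replicate 3 above FL replicate 2. Its log2 fold change was 0.05 (SE 0.51, 95% interval −1.13 to 1.22; exact permutation p = 0.943), and its sign also turned without FL replicate 1 (−0.27), FL replicate 3 (−0.0038) or WT replicate 3 (−0.08). *Hspa1a* amounted to 7.66% to 22.0% of *Hspa1b* in FL and 8.74% to 35.3% in WT, with the highest percentages in FL replicate 3 and WT replicate 2. The counts of this pair are uncertain: 62.3% of the 36-base stretches of *Hspa1a* transcripts also occur in *Hspa1b*, and how reads matching both were assigned is not given in the sources used here. *Hsph1* and *Bag3*, in contrast, share 0.0% of their stretches with other genes.

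*Hspa8* encodes HSC70, the HSP70 that unstressed cells also make. It read 22843, 22482, 12787 and 21461 in FL and 23704, 4640 and 22009 in WT. The 5 livers other than FL replicate 3 and WT replicate 2 were almost level, with a ratio of highest to lowest of 1.10, whereas that ratio was 2.38 for *Hspa1b* and 4.0 for *Hspa1a*. The log2 fold change of *Hspa8* was 0.53 (SE 0.55, 95% interval −0.75 to 1.81; exact permutation p = 0.657) over all 7 livers and −0.04 (SE 0.09, 95% interval −0.25 to 0.17) over those 5, which is the narrowest interval among the members. Of its stretches, 43.2% also occur in other annotated genes, most in *Gm15459* and *Gm26825*.

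*Hsph1*, the HSP110 that releases nucleotide from HSP70, read 16595, 11635, 6461 and 9229 in FL and 14926, 1730 and 14146 in WT. WT replicate 2 held 11.9% of the mean of the other WT livers, the lowest percentage among the 10 genes, and FL replicate 3 held 51.7% of the mean of the other FL livers. The means were 10980 ± 4299 and 10267 ± 7404, with a log2 fold change of 0.53 (SE 0.74, 95% interval −1.17 to 2.24; exact permutation p = 0.743). *Bag3*, an HSP70 cochaperone that routes damaged proteins to autophagy, read 8870, 5799, 3130 and 5715 in FL and 7028, 1595 and 5913 in WT. FL replicate 1 was the highest liver, and FL replicates 2 and 4 were close to WT replicate 3. Its log2 fold change was 0.44 (SE 0.54, 95% interval −0.81 to 1.70; exact permutation p = 0.629).

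*Dnajb1*, which encodes HSP40, the J-domain partner of stress-induced HSP70, read 6058, 4343, 2888 and 4193 in FL and 5787, 845 and 5951 in WT. WT replicate 2 held 14.4% of the mean of the other WT livers, and those other WT livers were close to FL replicate 1. The log2 fold change was 0.46 (SE 0.66, 95% interval −1.06 to 1.98; exact permutation p = 0.743). *Dnaja1* read 1757, 1357, 966 and 1279 in FL and 1662, 504 and 1931 in WT. Its mean was slightly lower in FL (1340 ± 325) than in WT (1366 ± 758) while its log2 fold change was 0.16 (SE 0.45, 95% interval −0.88 to 1.19; exact permutation p = 0.83), so that the sign depended on the scale.

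*Hsp90aa1*, the stress-inducible HSP90, read 5525, 4475, 2135 and 3765 in FL and 5302, 951 and 5261 in WT. FL replicate 1 and the WT livers other than replicate 2 were nearly equal, and FL replicate 3 was the lowest FL liver. The log2 fold change was 0.33 (SE 0.62, 95% interval −1.10 to 1.76; exact permutation p = 0.743). Its constitutive partner *Hsp90ab1*, which is not among the 10, read 46942, 42044, 30790 and 41088 in FL and 45669, 17964 and 47720 in WT, and WT replicate 2 held 38.5% of the mean of the other WT livers for it. Of the *Hsp90aa1* stretches, 50.2% also occur in other annotated genes, against 8.5% for *Hsp90ab1*.

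*Hspd1*, which encodes HSP60, read 11122, 9239, 5171 and 9154 in FL and 10715, 2838 and 12049 in WT. WT replicate 3 was the highest liver and WT replicate 2 the lowest. The log2 fold change was 0.22 (SE 0.51, 95% interval −0.95 to 1.39; exact permutation p = 0.743). *Hspe1*, which shares the 18-base run printed above, read 3195, 2601, 1514 and 2914 in FL and 2908, 711 and 3332 in WT. Over the 7 livers the log2 values of the pair had a Pearson r of 0.99, and over the 5 similar livers 0.85. In the list of 13 mitochondrial chaperones that *Hspe1* belongs to, WT replicate 2 was the lowest liver for 4.

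*Hspb1*, which encodes HSP27, read 7324, 6339, 6688 and 5168 in FL and 6705, 1742 and 8382 in WT. Like *Hspa1a*, at 98.3%, it was not low in FL replicate 3, at 107% of the mean of the other FL livers, although WT replicate 2 held 23.1% of the mean of the other WT livers. The FL livers were close together (6380 ± 905) and the WT livers far apart (5610 ± 3453). The log2 fold change was 0.46 (SE 0.49, 95% interval −0.67 to 1.59; exact permutation p = 0.714).

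**Figure D2:**
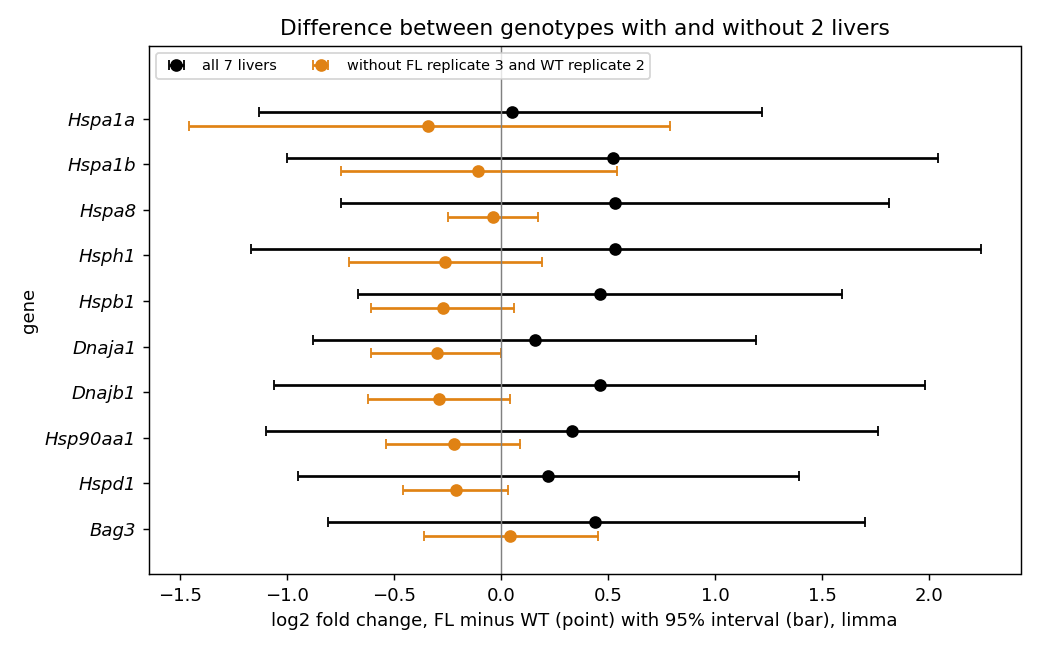
Log2 fold change, FL minus WT, from limma (points) with its 95% interval (bars) for each gene, over all 7 livers (black) and over the 5 livers that remain without FL replicate 3 and WT replicate 2 (orange). Every black point lies between 0.05 and 0.53, 9 of the 10 orange points lie below 0, and every interval over the 7 livers includes 0.

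Leaving out FL replicate 3 and WT replicate 2 narrowed the intervals and turned most directions, as the plot of fold changes shows. Over the remaining 5 livers 9 members had a log2 fold change below 0 and 1, *Bag3*, above it (0.04, SE 0.18), with a median of −0.24 beside −0.01 over all 12325 genes tested there. The lowest unadjusted p was that of *Dnaja1*, with a log2 fold change of −0.30 (SE 0.14; limma unadjusted p = 0.0521, adjusted p = 0.515; an exact permutation of 3 against 2 livers cannot go below 0.1). By limma 0 of 10 members passed the adjusted threshold, against 0.0487% of all genes (6), and 0 had an unadjusted p under 0.05, against 9.74% (1200), so neither count sets the members apart. The widest interval over these livers was that of *Hspa1a*, from −1.46 to 0.79. FL replicate 4 was the lowest of these 5 livers for all 10 members, against 28.3% of all genes tested, a comparison made after the values were seen.

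Livers of the same genotype differed widely in these genes. WT replicate 2 was the lowest of the 7 livers for 9 of 10 members, against 33.9% of all genes tested. FL replicate 3 was the lowest FL liver for 8 of 10, against 34.5%, and both livers were below the other 5 for 8 of 10, against 25.8%. In WT replicate 2 the members ranged from 11.9% (*Hsph1*) to 46.0% (*Hspa1a*) of the mean of the other WT livers, and ordered by the size of the difference *Hsph1* ranked 76th, *Dnajb1* 90th and *Hspa1b* 116th lowest among the 12545 genes. In FL replicate 3 they ranged from 46.1% (*Bag3*) to 107% (*Hspb1*) of the mean of the other FL livers. The 10 genes together were 0.124% of all normalised counts in WT replicate 2, 0.299% in FL replicate 3 and 0.411% to 0.628% in the other 5 livers. In whole liver, fewer cells of a type and less RNA per cell cannot be told apart.

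Markers of other cell types also differed in these livers. The 8 stellate cell and fibroblast markers summed to 9787 normalised counts in WT replicate 2 and 2518 in FL replicate 3. The other 5 livers held 1283 to 1514, and 7 of the 8 markers were highest in WT replicate 2. Most of both sums was *Col3a1* (4265 and 704), *Col1a1* (1744 and 334) and *Col1a2* (1711 and 464). In FL replicate 3, 5 of the 8 were highest among the FL livers, whereas *Reln* was lowest there. The 12 macrophage and Kupffer cell markers summed to 18704 in WT replicate 2 and 11413 in FL replicate 3, against 7448 to 9125 in the rest, with 10 of 12 highest in WT replicate 2. *Cd163* went the other way, at 190 in WT replicate 2 and 140 in FL replicate 3, against 380 to 576 in the rest. The 12 proliferation genes, of which *Bub1* was listed at 0 in at least 1 liver, summed to 1740 and 802 in these livers, against 584 to 750 elsewhere. The 9 hepatocyte markers summed to 1562760 in WT replicate 2, above the other WT livers (1304054 and 1388302). *Alb* made up 1200274 of that sum, against 956556 and 1031218 in those livers. Of the 9, 3 were lowest and 1 was highest in WT replicate 2. Against the mean of the other WT livers, *Hnf4a* stood at 72.5% there, *Apob* at 75.7%, *Apoa1* at 96.2% and *Serpina1a* at 97.1%. *Cps1* stood at 119%, *Alb* at 121%, *Ttr* at 126%, *Tat* at 151% and *Ass1* at 178%. The sum of the 8 endothelial markers ran from 3238 to 3775 in FL and from 2912 to 4117 in WT. The top of each range was FL replicate 3 and WT replicate 2, against 2912 to 3505 in the rest. WT replicate 2 had the top value of the 7 livers for 6 of the 8 markers. FL replicate 3 had the top FL value for 6. *Clec4g* was lower in both, at 598 in WT replicate 2 and 567 in FL replicate 3, against 658 to 742 in the rest. The 7 neutrophil markers in the table, with *Cxcr2* and *Mmp8* at 0 in at least 1 liver, summed to 753 to 1311 in FL and 228 to 887 in WT, most of it *Lcn2* (709 to 1186 and 159 to 711). *Csf3r* and *S100a9* were highest in WT replicate 2, at 323% and 173% of the mean of the other WT livers. *S100a9* read only 38 there, and 33 in FL replicate 3. On the same measure *S100a8* stood at 78.8%, *Cxcr2* at 100%, *Lcn2* at 160%, *Retnlg* at 180% and *Mmp8* at 500%. The 6 cholangiocyte markers, with *Cftr* at 0 in at least 1 liver, summed to 603 to 1482 in FL and 884 to 1207 in WT, and that sum hides genes on opposite sides. The groups did not overlap for *Krt19* (6 to 21 in FL, 26 to 128 in WT), *Krt7* (2 to 18 and 28 to 33) or *Sox9* (297 to 763 and 204 to 261). Over all genes tested, 1.98% were apart with FL lower and 2.77% with FL higher. The limma adjusted p was 0.999 for each of these genes (0.027 for *Sox9* over the 5 livers without FL replicate 3 and WT replicate 2). These marker genes were named after their values were seen. The part of these cell types in the low chaperone values was not tested.

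Levels of different genes were compared as normalised counts per kb of annotated exon, averaged over the 7 livers. *Hspb1* was highest at 5868 per kb, followed by *Hspa8* (4315), *Hspa1b* (3412), *Hspd1* (3260), *Bag3* (2122), *Hsph1* (1469), *Dnajb1* (1341), *Hsp90aa1* (996), *Hspa1a* (436) and *Dnaja1* (157). Between neighbours in this order the ranges over the 7 livers overlapped in 9 of 9 pairs, although *Hspb1* was above *Hspa8* in all 7 livers and 6 of the 9 pairs kept their order in every liver. *Hspa1b* and *Hspd1* were in this order in 4 of 7 livers, and so were *Hsph1* and *Dnajb1*. *Dnaja1* and *Hsph1* have long annotated exon lengths of 8629 and 7266 bases, which lowers their levels per kb. Of the *Hspb1* stretches, 54.0% also occur in other annotated genes, most in *Hsp25-ps1* (51.4%), and of the *Hspd1* stretches 49.5% do. The place of these genes in the order is therefore uncertain.

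**Figure D3:**
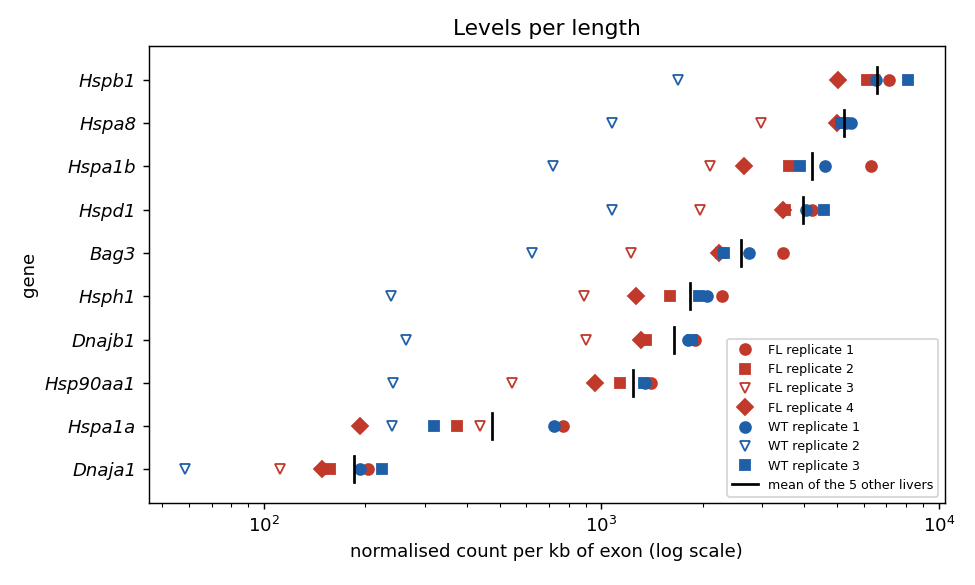
Normalised count per kb of annotated exon (log scale) of each gene in each liver, FL in red and WT in blue, with FL replicate 3 and WT replicate 2 as open triangles and a black line at the mean of the 5 other livers. *Hspb1* and *Hspa8* lie at the top and *Hspa1a* and *Dnaja1* at the bottom, and WT replicate 2 is set off to the left for 9 genes.

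Over all 7 livers the members varied together, *Hspa1a* less so than the rest. The 36 pairs that do not include *Hspa1a* had a Pearson r of log2 values of 0.83 to 1.0 (median 0.97), whereas *Hspa1a* had an r of 0.41 to 0.65 with the other 9. Over the 5 similar livers the r of *Hspa1a* with *Hspa1b* was 0.93, against 0.65 over all 7, and *Hspa1a* no longer stood out: its r with the other 9 had a median of 0.84, beside 0.81 for the pairs without it, and the lowest of the 45 pairs was *Hspa8* with *Hspd1* (0.30). These values are descriptions: the points share 7 libraries, and WT replicate 2 sets most of the range. The mean of the 10 centred log2 values was 0.72, 0.26, −0.34 and 0.00 in FL and 0.58, −1.69 and 0.47 in WT. The 8 other genes with the closest pattern over the 7 livers were *Usp19* (r = 0.998), *Npepps* (0.997), *Tm9sf2* (0.997), *Mcmbp* (0.997), *Ubxn4* (0.996), *Zfp451* (0.996), *Taf4* (0.996) and *Pprc1* (0.995). Pearson r takes no account of the size of a change, and these 8 genes varied less than the members. Their ratio of highest to lowest liver ran from 1.22 (*Npepps*) to 2.52 (*Zfp451*), against 3.83 to 9.59 for the members. An r over 0.9 was common, since 1620 of 10301 genes (15.7%) had one.

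The rest of the chaperone network was counted in whole lists, and 0 genes passed the adjusted threshold in any of them by limma. The count at an unadjusted p under 0.05 was 1 among the J-domain proteins, 1 among the small heat shock proteins and 0 in the other chaperone lists, beside the 3.2% of all genes given above. The groups did not overlap for 1 of 24 J-domain proteins and 1 of 4 small heat shock proteins, with FL higher in both. They did not overlap for 1 of 16 HSP90 cochaperones and 1 of 19 ER chaperones, with FL lower in both. In the other chaperone lists the count was 0, beside 2.77% (FL higher) and 1.98% (FL lower) of all genes. Among the 24 other J-domain proteins tested, WT replicate 2 was the lowest liver for 14, and the median log2 fold change was 0.04. *Dnaja4*, a stress-inducible J-domain protein, read 300, 199, 125 and 148 in FL and 253, 27 and 293 in WT, so that WT replicate 2 held 9.89% of the mean of the other WT livers. *Dnajc25* was the J-domain gene whose groups did not overlap, at 515, 582, 512 and 574 in FL and 481, 384 and 455 in WT, with a log2 fold change of 0.31 (SE 0.12; limma adjusted p = 0.999; exact permutation p = 0.0286). *Dnajc17* and *Dnajc18* had log2 fold changes of 0.41 (SE 0.26) and 0.19 (SE 0.13). *Dnaja4* was named after its values were seen.

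Of the 6 other HSP70 and HSP110 genes tested, 4 were lowest in WT replicate 2 and the median log2 fold change was 0.16. *Hspa4*, an HSP110 relative of *Hsph1*, read 5826, 5279, 3936 and 5247 in FL and 5681, 2774 and 5670 in WT, overlapping like the members. *Hspa2* and *Hspa13* had log2 fold changes of 0.19 (SE 0.31) and 0.15 (SE 0.29). Among the 8 other exchange factors and HSP70 regulators, the median was 0.05 and WT replicate 2 was the lowest liver for 4. *Stub1*, a ubiquitin ligase that tags HSP70 clients, had a log2 fold change of 0.23 (SE 0.12), *Bag2* of −0.34 (SE 0.19) and *Bag5* of 0.17 (SE 0.12). WT replicate 2 differed less in this list than in the members, with a median of −0.13 against −2.20 on the log2 scale.

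HSP90 cochaperones were lowest in WT replicate 2 for 13 of 16 genes, with a median log2 fold change of 0.12. *Fkbp5*, a cochaperone of steroid receptors, read 3022, 4085, 2538 and 4248 in FL and 2472, 1622 and 2963 in WT, with a log2 fold change of 0.57 (SE 0.25; limma adjusted p = 0.999; exact permutation p = 0.114). *Ttc4* read 481, 487, 476 and 524 in FL and 535, 535 and 554 in WT, so that its groups did not overlap, with a log2 fold change of −0.14 (SE 0.09; exact permutation p = 0.0571). *Cdc37l1* had a log2 fold change of 0.35 (SE 0.28). The small heat shock proteins did not move as one. *Hspb6* read 287, 314, 275 and 255 in FL and 238, 214 and 216 in WT, with no overlap and a log2 fold change of 0.34 (SE 0.12; limma adjusted p = 0.999; exact permutation p = 0.0286). *Hspb8*, a partner of *Bag3*, read 16659, 12960, 10470 and 11742 in FL and 12280, 6072 and 13546 in WT, and *Cryab* had a log2 fold change of −0.25 (SE 0.27).

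**Figure D4:**
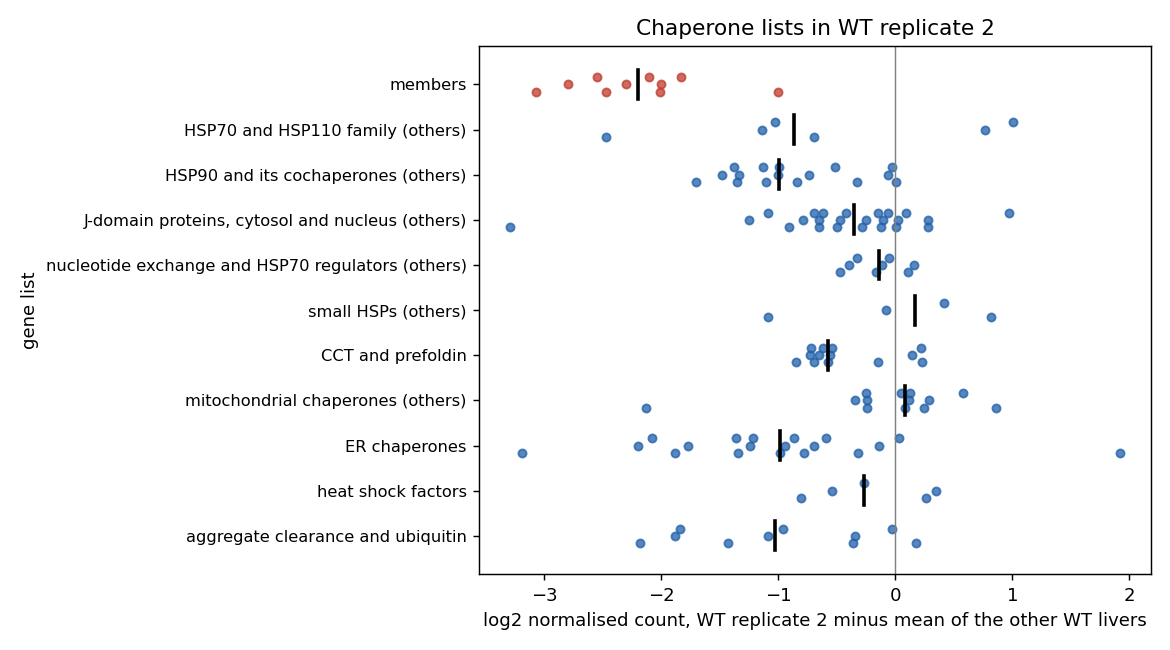
Log2 normalised count in WT replicate 2 minus the mean of the other WT livers, for each gene tested (points) in the 10 members (red) and in the other chaperone and proteostasis lists (blue), with a black bar at each list's median. The median is −2.20 for the members, −0.98 for the ER chaperones and 0.08 for the other mitochondrial chaperones.

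The lists differed in how low WT replicate 2 stood, as the plot of chaperone lists shows, and no test of these differences was run. Among 19 ER chaperones, WT replicate 2 was the lowest liver for 16, and both it and FL replicate 3 were below the other 5 livers for 15. *Hspa5*, which encodes BiP, the HSP70 of the ER, read 111872, 107558, 62795 and 103797 in FL and 117302, 27986 and 140354 in WT, with a log2 fold change of 0.28 (SE 0.54; exact permutation p = 0.83). *Serpinh1*, the collagen chaperone, went the other way and was highest in WT replicate 2 (494, against 136 and 124 in the other WT livers), as it was among FL livers in FL replicate 3 (231, against 115 to 128), with a log2 fold change of −0.52 (SE 0.49). *Sil1*, an exchange factor of BiP, had one of 0.12 (SE 0.10). *Dnajc10*, a reductase of the ER, did not overlap between groups, at 687, 713, 710 and 743 in FL and 783, 787 and 763 in WT (log2 fold change −0.13, SE 0.09; exact permutation p = 0.0571).

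The mitochondrial list leaves out *Hspd1*, which stood at 24.9% of the mean of the other WT livers in WT replicate 2, and holds *Hspe1*, at 22.8%. Among its other genes *Clpp* had a log2 fold change of 0.17 (SE 0.11), *Clpb* of −0.14 (SE 0.10) and *Dnaja3* of 0.13 (SE 0.10), and the list's median in WT replicate 2 against the other WT livers was 0.08 on the log2 scale. Of the 13 genes of the CCT chaperonin and prefoldin, which fold actin and tubulin, 9 were lowest in WT replicate 2 with a median difference of −0.57. *Pfdn5* had a log2 fold change between genotypes of 0.12 (SE 0.13), *Vbp1* of −0.12 (SE 0.15) and *Pfdn1* of −0.11 (SE 0.14).

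The transcription factor *Hsf1* read 865, 767, 702 and 770 in FL and 912, 492 and 802 in WT, with a log2 fold change of 0.12 (SE 0.21; exact permutation p = 0.8). WT replicate 2 held 57.4% of the mean of the other WT livers for *Hsf1*, and *Hsf2* (0.06, SE 0.12) and *Hsf4* (0.08, SE 0.19) also had log2 fold changes near 0. Among the 10 genes of aggregate clearance and ubiquitin, 8 were lowest in WT replicate 2. *Zfand2a*, a stress-inducible adaptor of the proteasome, read 9614, 8358, 3626 and 6667 in FL and 7777, 1604 and 6814 in WT (log2 fold change 0.59, SE 0.57). Immediate early genes, another group induced by stress, were lowest in WT replicate 2 for 3 of 12 and highest there for 5, with 0 past the adjusted threshold and 1 at an unadjusted p under 0.05. *Jun* read 4136, 3203, 2167 and 2869 in FL and 2453, 1444 and 2092 in WT, with a log2 fold change of 0.63 (SE 0.25; limma adjusted p = 0.999; exact permutation p = 0.0857), and *Jund* and *Ier3* had log2 fold changes of 0.21 (SE 0.11) and 0.26 (SE 0.17). The cold-inducible *Cirbp* (0.19, SE 0.27) and *Rbm3* (0.01, SE 0.17) had log2 fold changes within their error.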

How the data were processed

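RNA was sequenced from 4 FL and 3 WT livers with a stranded kit for polyadenylated RNA. Per the submitters' processing notes and the study's methods, the authors used TopHat2 (2.0.13) and Bowtie2 (2.2.6.0) with mouse Ensembl release 75 for alignment, counted reads per gene and normalised with DESeq2. The values the authors deposited are these normalised counts rounded to whole numbers, handled here as a score without a fixed unit. Rounding hides the whole reads, so no count test was run, and depth was estimated from the spacing of low values. The 120 IDs on more than 1 row held identical values and were kept once. No per-sample column was left out. Symbols, coordinates and exon lengths came from GENCODE release M21 (GRCm38), which named 14839 of 14851 IDs, and promoters from RefSeq (GRCm38.p6).

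FL was compared with WT by limma 3.58.1 in R 4.3.3 (lmFit, and eBayes with a trend) on log2 values after adding 1, for the genes whose mean was at least 10, with Benjamini-Hochberg adjustment over all of them and a threshold of 0.05. Fold changes on this scale understate those of low genes. Exact two-sided permutation tests used all 35 assignments of the 7 livers. P-values measure the spread between these mice. The members and lists were chosen with earlier results of these data known. Named were the members, *Trp53*, *Hsf1*, *Hspe1*, *Hsp90ab1* and *Hspa5*, up to 3 genes per chaperone list with the smallest limma p, and the 8 genes closest in pattern. A gene that this rule names is not reported here. Alternatives were other pseudocounts, filters, scalings and limma settings, a replicate block and leaving out livers. Tables and figures used Python 3.11.15, pandas 2.3.3, NumPy 2.4.6 and Matplotlib 3.10.9.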

Additional observations from a re-analysis of the deposited data

Results flagged for a closer look

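The 4 FL values were examined for the 10 members and their sum, and for the genes that the naming rule or the text picks, marker, proliferation and p53 genes included. In 5 of these 81 sets, where chance alone would give about 4, the gap between 1 liver and its nearest neighbour exceeded 0.83 of the range (Dixon's critical value), and each time the liver was FL replicate 3. *Hspa8* stood at 12787 normalised counts there, against 21461 to 22843 in the other FL livers. *Hspa5* stood at 62795, against 103797 to 111872. *Serpinh1* stood at 231, against 115 to 128, and so was high where *Hspa8* and *Hspa5* were low. The proliferation genes *Mki67* and *Aurkb* were high too, at 75 against 17 to 26 and at 19 against 4 to 5.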

How the results depend on the processing

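Across the 20 alternatives 0 of the 200 refitted member values passed the adjusted threshold (lowest adjusted p = 0.495, limma), 169 kept their direction and 31 reversed, 22 without a liver and 9 under array weights, which down-weight variable livers. With array weights the log2 fold changes were −0.33 for *Dnaja1*, −0.29 for *Dnajb1*, −0.26 for *Hspd1*, −0.23 for *Hspb1*, −0.22 for *Hsp90aa1*, −0.21 for *Hsph1*, −0.03 for *Hspa1b* and −0.02 for *Hspa1a* and *Hspa8*, with a median of −0.22 and 5 genes of all tested past the threshold. Leaving out livers gave a median of −0.39 to 0.81 and 0 to 6 genes past the threshold. It gave ranges of −0.23 to 0.84 for *Bag3*, −0.45 to 0.52 for *Dnaja1*, −0.47 to 0.93 for *Dnajb1*, −0.49 to 0.75 for *Hsp90aa1*, −0.34 to 0.51 for *Hspa1a*, −0.33 to 1.01 for *Hspa1b*, −0.24 to 0.94 for *Hspa8*, −0.27 to 0.89 for *Hspb1*, −0.44 to 0.60 for *Hspd1* and −0.49 to 1.07 for *Hsph1*. Leaving out WT replicate 2 reversed all 10 members.

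The 2 genes past the threshold by limma became 0 with a pseudocount of 5 (404 at an unadjusted p under 0.05), with a minimum of 10 in every liver (356), with a mean of at least 50 (316) and without a trend (465), and 1 with quantile normalisation. With the replicate number as a block the count was 0 (110 unadjusted) and the members' median 0.44. The numbers name separate mice, and the deviations of same-numbered livers had correlations of 0.44, −0.48 and −0.66, so they were not treated as pairs. The cause of these changes was not tested. DESeq2 and edgeR fits were not run, since the rounded values do not give whole reads. Over all 4 FL and 3 WT livers the members' intervals reached down to −1.17 and up to 2.24 on the log2 scale. Those livers include FL replicate 3 and WT replicate 2, which stood apart from the rest. What set the width of the intervals was not tested.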
